A study of Mus musculus with 6 samples.

Results

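The genes described here encode the subunits of the oxidative phosphorylation complexes that are made from nuclear DNA. They were taken from the deposited expression table by symbol and not by any measured value. The pattern took symbols beginning with Uqcr or Atp5, the symbols Sdha to Sdhd, Cox followed by a number from 4 to 8, and Nduf followed by a, b, c, s or v and a number. It matched 86 symbols, of which Cox7b2 and Cox8c were blank in every library, and this left 84 of the 18071 genes with values. Complex I held 39 of them, complex II 4, complex III 8, complex IV 16 and complex V 17. The list follows names, so it misses Ndufab1 and Cyc1, which encode subunits of complexes I and III. It counts Ndufa4 with complex I, although its protein is now placed in complex IV. Cox7a2l encodes a factor that joins complexes into supercomplexes, and Atp5s is not regarded as a true subunit of ATP synthase. Ndufb4b and Ndufb4c are named as copies of Ndufb4, and reads of near-identical copies can be split only uncertainly. The 13 subunits encoded in mitochondrial DNA were not analysed here.

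RNA was sequenced from 3 libraries of mouse immature dendritic cells (imDCs) under fluid shear stress (FSS) and 3 libraries of imDCs kept static. A cone turning over a 6-cm dish loaded the FSS cells with 10 dyn/cm2 for 3 h, and static cells were not loaded. Cells of both groups came from the bone marrow of male C57BL/6 mice aged 7 weeks, were cultured for 7 days with 20 ng/ml GM-CSF and 10 ng/ml IL-4, and selected by CD11c. The question is which messenger RNAs differ after loading. The libraries are numbered 1 to 3 in both groups, and values are given below in that order. The labels do not say that the libraries came from separate cultures, so p-values measure only the spread between these libraries, which may be technical.

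Oxidative phosphorylation passes electrons from NADH and succinate through complexes I to IV to oxygen and stores the energy as a proton gradient across the inner mitochondrial membrane, which complex V uses to make ATP. Complexes I, III, IV and V are built from subunits of both genomes, while complex II is wholly nuclear. In dendritic cells, resting and tolerogenic states are known for relying on this pathway, and activation by microbial signals is known for shifting metabolism towards glycolysis.

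Values are FPKM, fragments of a gene divided by its transcript length and by the library's mapped fragments. The unit was inferred, since the header gives none, and depth is unknown. Between 10390 genes (FSS library 3) and 10959 genes (FSS library 2) reached 1 FPKM. Dendritic cell genes were abundant: Itgax, which encodes CD11c, had 397, 445 and 502 FPKM in FSS libraries and 502, 509 and 599 FPKM in static libraries. Flt3 and Cd209a, other dendritic cell markers, stayed under 1 FPKM in all 6 libraries. Of 7 tested dendritic cell markers, 1 was lower without the block: Irf4, a transcription factor of these cells, had 88.3, 123 and 107 FPKM in FSS libraries and 431, 326 and 407 FPKM in static libraries (adjusted p 0.0133). With the block Zbtb46 (0.0121) and Itgax (0.0199) were lower too. Of all genes tested, 0.862% were lower without the block and 25.1% with it. With block and median-ratio scaling, described below, Irf4 (9.19e-05) and Zbtb46 (0.0204) were still lower and Itgax was not called (0.495). Log2 differences were -0.073 for Cd74, 0.078 for H2-Ab1, 0.065 for H2-Aa and 0.041 for Ciita, none called with the block. Summed T cell markers reached at most 1.40 FPKM in FSS libraries and 2.06 FPKM in static libraries, and summed erythroid markers at most 0.79 and 0.78 FPKM. Summed macrophage markers came to 496, 410 and 492 FPKM in FSS libraries and 411, 349 and 424 FPKM in static libraries. The 5 macrophage markers did not move as 1: with the block Mertk (adjusted p 0.00166) and Adgre1 (0.0238) were higher and Fcgr1 (0.00338) was lower, and none passed without it. The blocked fit called 7.73% of all genes tested higher and 25.1% lower. The part of these markers in the results below was not tested. Both libraries numbered 3 stood apart from the other libraries, and calls, medians and pair counts are also given without them.

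No subunit gene passed the test between FSS and static cells when the libraries of a group were compared as they stand. Of the 79 members that reached 1 FPKM in at least 3 libraries, 0 were higher and 0 lower (limma on log2(FPKM + 1), adjusted p under 0.05 over all 10899 genes tested). Among all genes tested, 0.853% were higher and 0.862% lower in that fit. At an unadjusted p under 0.05 the same fit held 1 member, Cox7a2l, beside 18.1% of all genes tested. The log2 differences of the 79 members ran from -0.38 (Ndufb4) to 0.50 (Cox7a2l). Their median was -0.095, beside -0.118 for all genes tested. Scaling by the median of ratios, which sets the middle gene of each library level, shifted the median of all genes by 0.138, and the members' median then turned to 0.065. Relative to all genes tested, the members' median stood 0.023 higher as deposited and 0.045 higher after scaling. Without both libraries numbered 3 the members' median was -0.108 and that of all genes tested -0.075, so the members then stood on the other side of the middle gene. In bulk RNA, fewer cells of a type and less RNA per cell cannot be told apart.

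Libraries of one replicate number deviated together across genes, so the numbers were taken to pair the libraries and a blocked model was fitted as well. With the block, 1 member was higher in FSS cells (Cox7a2l) and 5 were lower (Ndufb4, Ndufc1, Ndufs8, Uqcrc1 and Uqcrfs1). The same fit called 7.73% of all genes tested higher and 25.1% lower, 32.9% in all. With the block and median-ratio scaling, 4 members were higher, among them Cox7a2l, Atp5k and Atp5g2, and 0 were lower, beside 19.2% and 16.8% of all genes tested (36.0% in all). None of the 5 lower calls therefore outlasted the scaling, and Cox7a2l was called in both fits. In every one of these fits the share of members called was below the share of all genes called.

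Summed over the 84 members, the level was 6446, 7661 and 9973 FPKM in FSS libraries and 6750, 8028 and 10034 FPKM in static libraries. The FSS sum over the static sum was 0.955, 0.954 and 0.994 in the 3 pairs. Members took 1.56%, 1.82% and 2.27% of all FPKM in FSS libraries and 1.56%, 1.86% and 2.13% in static libraries. The spread between numbers within a group was therefore wider than the gap between groups within a number. The 5 members left out of the test were low: Cox8b was listed at 0 in every library, and Cox4i2, Ndufa4l2, Cox6a2 and Atp5s averaged 0.00667, 0.113, 1.72 and 0.698 FPKM over the 6 libraries. Cox4i2 is the isoform known from lung, and Cox6a2 and Cox8b are known as isoforms of heart and skeletal muscle.

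Levels differed more between complexes than between groups. The median level of a tested member over all libraries was 41.9 FPKM in complex I, 65.3 in complex II, 88.6 in complex III, 187 in complex IV and 158 in complex V. Atp5b, the catalytic beta subunit of ATP synthase, was the highest member at 489 FPKM, and Cox4i1, the common form of a regulatory subunit of complex IV, followed at 458 FPKM. The lowest tested members were Cox6b2, an isoform known from testis, at 0.998 FPKM and Ndufb4b at 1.03 FPKM. Within complex II the 4 members lay within 1.26-fold of each other, while within complex V the highest stood 12.9-fold above the lowest.

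**Figure D1:**
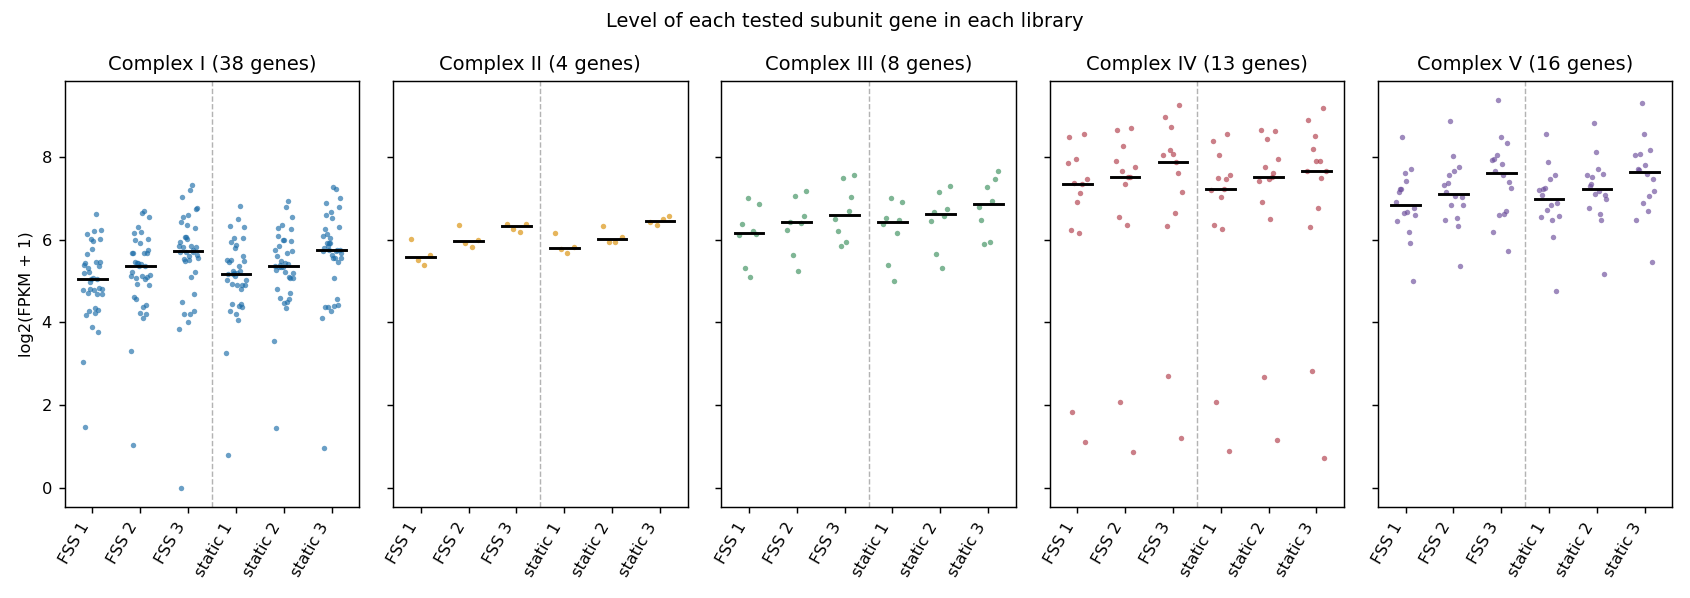
Level of each tested subunit gene, as log2(FPKM + 1), in the 3 FSS and then the 3 static libraries, with 1 panel for each complex; dots are genes and black bars are medians of the genes shown. Medians of a complex also vary between replicate numbers, and libraries numbered 3 have the highest medians in both groups.

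Cox7a2l, also known as SCAF1, was the member with the largest difference. Its protein resembles a subunit of complex IV and links complexes III and IV in supercomplexes, and C57BL/6 mice are known to carry a shortened form of it. It had 229, 239 and 261 FPKM in FSS libraries, against 146, 171 and 200 FPKM in static libraries. All 3 FSS libraries lay above all 3 static libraries, and no other member showed this, beside 5.10% of all genes tested. The means were 243 ± 16.6 FPKM in FSS cells and 173 ± 27.0 FPKM in static cells (SD, n = 3 each), a ratio of 1.41. The log2 difference was 0.50 ± 0.18 (SE) with an adjusted p of 0.186. With the replicate block the adjusted p was 0.00430, and with block and median-ratio scaling the difference was 0.66 with an adjusted p of 0.000999. Without both libraries numbered 3, the blocked adjusted p was 0.00150. The FSS over static ratio was 1.56, 1.40 and 1.30 in pairs 1, 2 and 3. Leaving out 1 library at a time moved the log2 difference between 0.39 and 0.61. Its direction could not turn, because the groups do not overlap.

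The related genes Cox7a2 and Cox7a1 were not higher in FSS cells in any pair as deposited, and neither passed the test over all 6 libraries with or without the block. Cox7a2, the form of the subunit that most tissues use, had 70.2, 80.9 and 99.2 FPKM in FSS libraries and 75.2, 88.8 and 108 FPKM in static libraries, an FSS over static ratio of 0.934, 0.911 and 0.918 in the pairs. Its log2 difference of -0.12 turned to 0.04 with median-ratio scaling. Cox7a1, known as the form of heart and skeletal muscle, had 2.57, 3.19 and 5.49 FPKM in FSS libraries and 3.18, 5.41 and 6.10 FPKM in static libraries. Of the summed FPKM of these 3 genes, Cox7a2l made up 75.9%, 74.0% and 71.4% in FSS libraries and 65.1%, 64.5% and 63.7% in static libraries. The groups do not overlap in this share, which depends on no scaling between libraries. It was taken up after the values were seen and was not tested.

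**Figure D2:**
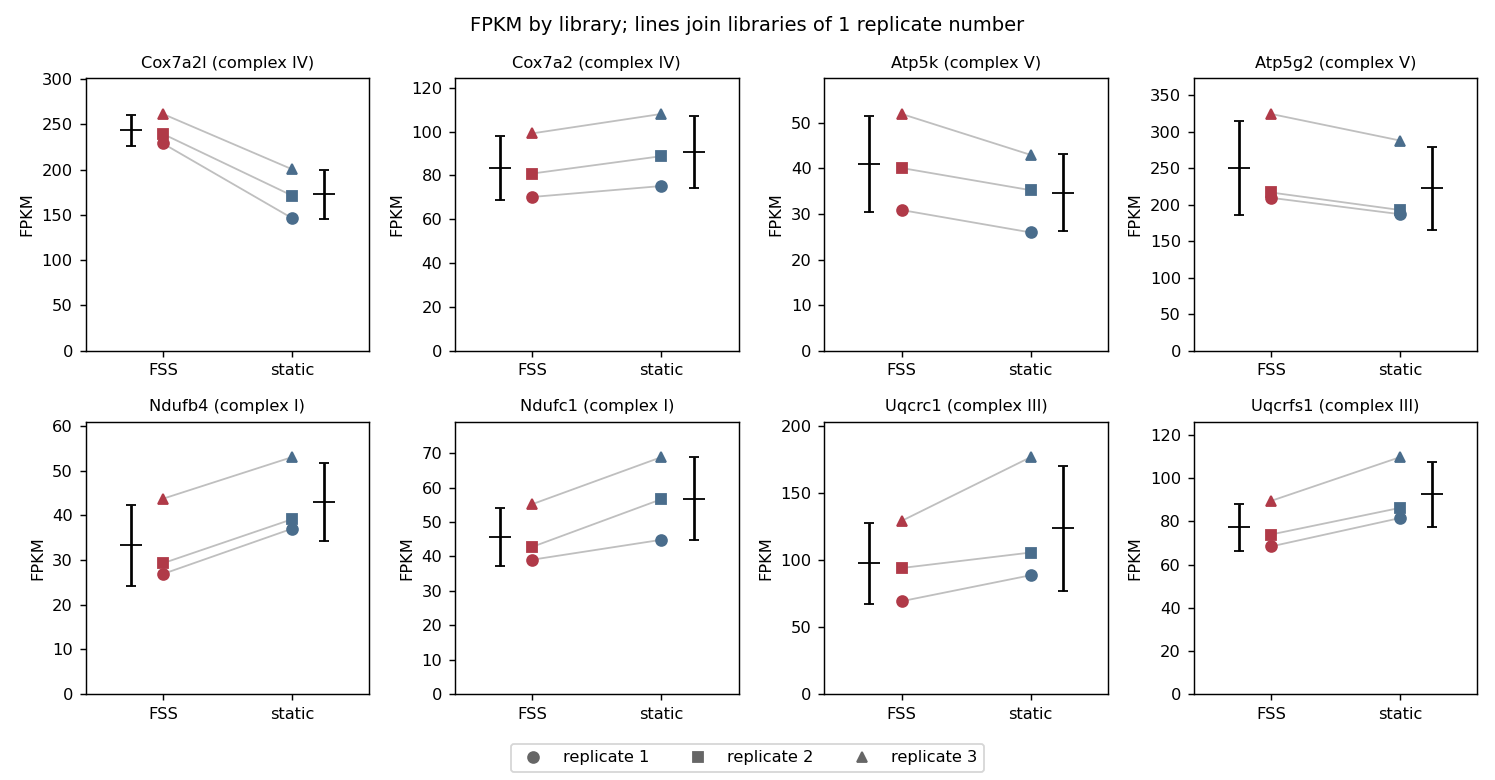
FPKM of 8 subunit genes in each library, FSS left and static right, with grey lines joining libraries of 1 replicate number and black bars giving the mean and SD of 3 libraries. Only Cox7a2l has all FSS libraries above all static libraries; Atp5k and Atp5g2 are higher in FSS cells within each pair but overlap between groups, and Ndufb4, Ndufc1, Uqcrc1, Uqcrfs1 and Cox7a2 are lower within each pair as deposited (with median-ratio scaling the mean difference of Cox7a2 turns to 0.042).

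The starts of 3 of the genes called under the replicate block in at least 1 scaling are shown, picked with results known, because nuclear subunit genes are known targets of NRF1 and of ETS factors such as GABP. The windows run from 250 bases before to 50 bases after the transcript start, 5' to 3' on the gene's strand, from RefSeq on GRCm38.p6. Capitals mark matches, on either strand, to the NRF1 core GCGCATG and the ETS core CCGGAAG. Cox7a2l (chr17:83514284-83514583, minus strand) has no match. Atp5k (chr5:108434350-108434649, minus strand) has NRF1 cores from positions -50 and -47, which overlap on opposite strands, and an ETS core on the reverse strand from position 13, counted from the start. Uqcrc1 (chr9:108936398-108936697, plus strand) has overlapping NRF1 cores from positions 31 and 34.
Cox7a2l: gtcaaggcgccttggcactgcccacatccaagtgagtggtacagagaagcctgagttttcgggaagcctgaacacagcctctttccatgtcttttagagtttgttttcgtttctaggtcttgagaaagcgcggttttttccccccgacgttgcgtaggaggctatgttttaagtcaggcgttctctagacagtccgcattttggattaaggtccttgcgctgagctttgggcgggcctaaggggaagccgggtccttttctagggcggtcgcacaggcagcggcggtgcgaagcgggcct
Atp5k: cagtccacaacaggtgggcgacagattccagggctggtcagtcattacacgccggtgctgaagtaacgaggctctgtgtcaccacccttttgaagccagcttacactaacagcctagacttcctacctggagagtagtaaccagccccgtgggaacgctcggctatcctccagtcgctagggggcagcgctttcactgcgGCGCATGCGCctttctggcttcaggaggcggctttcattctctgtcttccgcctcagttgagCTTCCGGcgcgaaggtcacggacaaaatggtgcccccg
Uqcrc1: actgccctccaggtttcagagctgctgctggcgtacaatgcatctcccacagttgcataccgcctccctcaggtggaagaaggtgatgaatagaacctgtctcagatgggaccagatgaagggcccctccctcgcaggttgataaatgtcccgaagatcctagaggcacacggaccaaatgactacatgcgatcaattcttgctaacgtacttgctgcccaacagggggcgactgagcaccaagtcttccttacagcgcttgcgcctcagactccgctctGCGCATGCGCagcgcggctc

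Of the members, 68 had windows in that table, 73 windows in all. The NRF1 core stood in 17.8% of them, in 6.98% of windows of all genes tested and in 3.91% of all windows. The ETS core stood in 21.9% of the members' windows, 18.5% of windows of all genes tested and 8.86% of all windows. The heat shock element core GAANNTTC, a motif added after results were seen, stood in 5.48%, 5.92% and 7.86% of these windows. These are matches of letters, and no binding was measured.

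Complex I, which takes electrons from NADH to ubiquinone, had a median log2 difference of -0.102 over 38 tested members, which turned to 0.056 with median-ratio scaling. Relative to all genes tested the median stood 0.016 higher as deposited and 0.036 higher after scaling. Summed FPKM were 1388, 1642 and 2235 in FSS libraries and 1518, 1770 and 2297 in static libraries. Of the core subunits, Ndufv1, which binds NADH and the flavin, had 24.9, 32.3 and 53.0 FPKM in FSS libraries and 27.2, 33.0 and 52.8 FPKM in static libraries. Ndufs7, which carries the last iron-sulfur cluster before the quinone, had 31.9, 39.8 and 63.3 FPKM in FSS libraries and 33.8, 39.2 and 59.2 FPKM in static libraries. Neither gene differed between the groups beyond the spread within them (adjusted p 0.962 and 0.990).

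The blocked fit called 3 of the 38 tested complex I genes lower, beside 25.1% of all genes tested. They were a core subunit and accessory subunits. Ndufs8, a core iron-sulfur subunit, had 25.1, 32.6 and 45.4 FPKM in FSS libraries and 29.4, 39.3 and 59.7 FPKM in static libraries, with a log2 difference of -0.29 and an adjusted p of 0.704, or 0.0431 with the block. Ndufb4, an accessory subunit of the membrane arm, had 26.9, 29.3 and 43.7 FPKM in FSS libraries and 37.0, 39.1 and 53.1 FPKM in static libraries. Its ratio was 0.726, 0.748 and 0.824 in the pairs, the log2 difference -0.38 and the adjusted p 0.469, or 0.0177 with the block. The groups overlap for each of these genes, and the gap appears only within pairs. Ndufc1, another small accessory subunit, had 39.0, 42.8 and 55.2 FPKM in FSS libraries and 44.8, 56.6 and 68.9 FPKM in static libraries, with an adjusted p of 0.534, or 0.0365 with the block. With block and median-ratio scaling their adjusted p values were 0.246 (Ndufs8), 0.119 (Ndufb4) and 0.257 (Ndufc1). The copy Ndufb4c had 12.6, 17.4 and 24.7 FPKM in FSS libraries and 20.8, 22.6 and 22.5 FPKM in static libraries, so it did not repeat the pattern of Ndufb4 in pair 3.

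Of the other complex I genes described, none passed with the block. Ndufa6, an accessory subunit, had 42.9, 49.8 and 56.7 FPKM in FSS libraries and 40.0, 49.8 and 45.7 FPKM in static libraries. Its log2 difference of 0.14 was the largest positive one of the complex, with an adjusted p of 0.768 (0.305 with the block). Ndufs1, the largest iron-sulfur subunit, had 13.7, 17.7 and 15.0 FPKM in FSS libraries and 17.3, 21.2 and 18.2 FPKM in static libraries, and its adjusted p was 0.456, or 0.0520 with the block. Ndufa4 had 18.6, 20.3 and 18.3 FPKM in FSS libraries and 19.5, 25.3 and 20.5 FPKM in static libraries, an adjusted p of 0.656.

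Complex II, succinate dehydrogenase, also works in the tricarboxylic acid (TCA) cycle, and none of its 4 genes passed a test with or without the block. Of all genes tested, 32.9% passed with the block and 1.72% without it. Sdha, the flavoprotein, had 63.2, 81.4 and 82.3 FPKM in FSS libraries and 70.0, 80.0 and 84.9 FPKM in static libraries. Sdhb, the iron-sulfur protein, had 40.8, 55.7 and 71.1 FPKM in FSS libraries and 49.8, 61.0 and 89.3 FPKM in static libraries, and its blocked adjusted p of 0.0684 was the lowest of the complex. The membrane anchors Sdhc and Sdhd had log2 differences of -0.12 and -0.14. The median of the complex was -0.129, and it turned to 0.030 with median-ratio scaling.

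Complex III passes electrons from ubiquinol to cytochrome c, and 2 of its 8 genes were lower with the block, a share near the 25.1% of all genes tested. Uqcrc1, a core protein, had 69.2, 94.0 and 129 FPKM in FSS libraries and 88.6, 106 and 177 FPKM in static libraries, with a log2 difference of -0.32 and an adjusted p of 0.673, or 0.0283 with the block. Uqcrfs1, the Rieske iron-sulfur protein that takes the electron from ubiquinol, had 68.4, 73.9 and 89.5 FPKM in FSS libraries and 81.6, 86.3 and 110 FPKM in static libraries, with an adjusted p of 0.550, or 0.0460 with the block. With block and median-ratio scaling their adjusted p values were 0.192 and 0.438. The other core protein, Uqcrc2, had 38.9, 48.5 and 56.1 FPKM in FSS libraries and 41.0, 48.9 and 58.2 FPKM in static libraries, and its blocked adjusted p was 0.704. The 2 core protein genes thus gave different calls, but the difference between them was not tested. Uqcrb, a small subunit, had 82.1, 85.3 and 72.3 FPKM in FSS libraries and 91.4, 101 and 87.5 FPKM in static libraries. As deposited, its FSS libraries lay below all static libraries. Of the 79 tested members only Uqcrb and Atp5mpl showed this, beside 20.4% of all genes tested. With block and median-ratio scaling the adjusted p was 0.614 for Uqcrb and 0.542 for Atp5mpl. Uqcrh, the largest rise of the complex, had a log2 difference of 0.035, and Uqcr11 had -0.119. Their blocked adjusted p values were 0.779 and 0.339. The complex median was -0.105, turning to 0.055 with median-ratio scaling.

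Complex IV passes electrons from cytochrome c to oxygen, and Cox7a2l was the only one of its 13 tested genes called with the block. The same fit called 32.9% of all genes tested, 7.73% of them higher. The isoform genes Cox4i2, Cox6a2, Cox6b2, Cox7a1 and Cox8b did not exceed 6.10 FPKM in any library. Cox4i1 had 378, 413 and 605 FPKM in FSS libraries and 376, 392 and 583 FPKM in static libraries. Cox5a and Cox5b, subunits on the matrix side, had log2 differences of -0.04 and -0.08, and Cox6a1 and Cox6b1 had -0.01 and -0.02. These genes lay close together between the groups, and none had a blocked adjusted p under 0.406. Cox6c, a small subunit in the membrane, had 175, 217 and 141 FPKM in FSS libraries and 189, 248 and 201 FPKM in static libraries, with an adjusted p of 0.567, or 0.0614 with the block. The untested muscle isoform Cox6a2 had 0.72, 0.55 and 4.66 FPKM in FSS libraries and 0.30, 0.26 and 3.83 FPKM in static libraries. Its level in both libraries numbered 3 was the highest of each group. The median of the complex was -0.033, turning to 0.128 with median-ratio scaling, and 0.085 and 0.108 relative to all genes tested.

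Complex V had a median log2 difference of -0.050 over 16 tested genes, which turned to 0.111 with median-ratio scaling and stood 0.068 and 0.091 above that of all genes tested. The catalytic beta subunit Atp5b had 356, 466 and 659 FPKM in FSS libraries and 373, 448 and 633 FPKM in static libraries. Its partner in the catalytic head, the alpha subunit Atp5a1, had 195, 257 and 359 FPKM in FSS libraries and 233, 278 and 375 FPKM in static libraries. Neither passed with the block (adjusted p 0.869 and 0.168). Atp5k, the small e subunit known for holding pairs of ATP synthases together, had 30.9, 40.1 and 52.0 FPKM in FSS libraries and 26.0, 35.2 and 43.0 FPKM in static libraries. It was 1.19, 1.14 and 1.21 times the static level in the pairs, and its adjusted p was 0.719, or 0.0783 with the block and 0.0109 with block and median-ratio scaling. Atp5mpl, a small membrane subunit, had 86.1, 87.3 and 71.3 FPKM in FSS libraries and 92.3, 108 and 88.2 FPKM in static libraries, with a blocked adjusted p of 0.0715. Atp5o, counted with the core subunits, had a log2 difference of -0.100 and a blocked adjusted p of 0.354.

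The 3 genes that encode the same mature c subunit of the rotor ring did not move alike in their own values. Atp5g2 had 209, 217 and 324 FPKM in FSS libraries and 187, 193 and 288 FPKM in static libraries, with a blocked adjusted p of 0.101 and 0.0297 after median-ratio scaling. Atp5g3 had 119, 160 and 244 FPKM in FSS libraries and 146, 187 and 265 FPKM in static libraries, with 0.0666 and 0.727. Atp5g1 had 59.6, 78.8 and 103 FPKM in FSS libraries and 65.7, 88.3 and 133 FPKM in static libraries, with 0.0900 and 0.623. Of their summed FPKM, Atp5g2 made up 54.0%, 47.6% and 48.3% in FSS libraries and 47.0%, 41.1% and 42.0% in static libraries. The share was higher in FSS cells within each pair and the groups do not overlap. It was taken up after the values were seen and has no test.

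**Figure D3:**
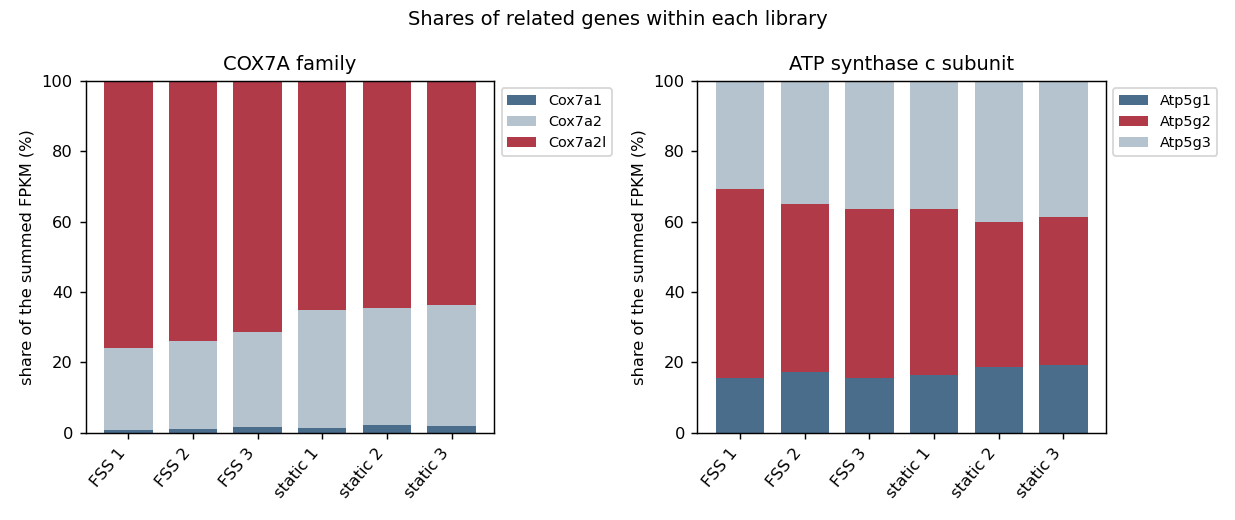
Share of summed FPKM held by each gene of the COX7A family (left) and by each of the 3 genes of the ATP synthase c subunit (right), in the 3 FSS and then the 3 static libraries. Cox7a2l holds 71.4% to 75.9% in FSS libraries and 63.7% to 65.1% in static libraries, and Atp5g2 holds 47.6% to 54.0% and 41.1% to 47.0%.

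Pair by pair, more members were lower than higher as deposited. In pairs 1, 2 and 3, 63, 62 and 49 of the 79 members were lower in FSS cells, with median log2 differences of -0.106, -0.098 and -0.035. All genes tested had medians of -0.079, -0.069 and -0.220 in the same pairs, so members lay below the middle gene in pairs 1 and 2 and above it in pair 3. In all 3 pairs 39 members were lower, beside 47.3% of all genes tested. In all 3 pairs 8 members were higher, beside 17.1% of all genes tested, among them Ndufa6, Ndufa10, Cox4i1, Cox7a2l, Cox8a, Atp5g2 and Atp5k. With median-ratio scaling these counts became 7 lower and 22 higher, beside 30.2% and 34.5%. The direction of most members thus depended on the scaling. In pairs 1 and 2 alone, without the libraries numbered 3, 54 members were lower in both and 8 higher in both, beside 5447 and 3569 of the 10899 genes tested.

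**Figure D4:**
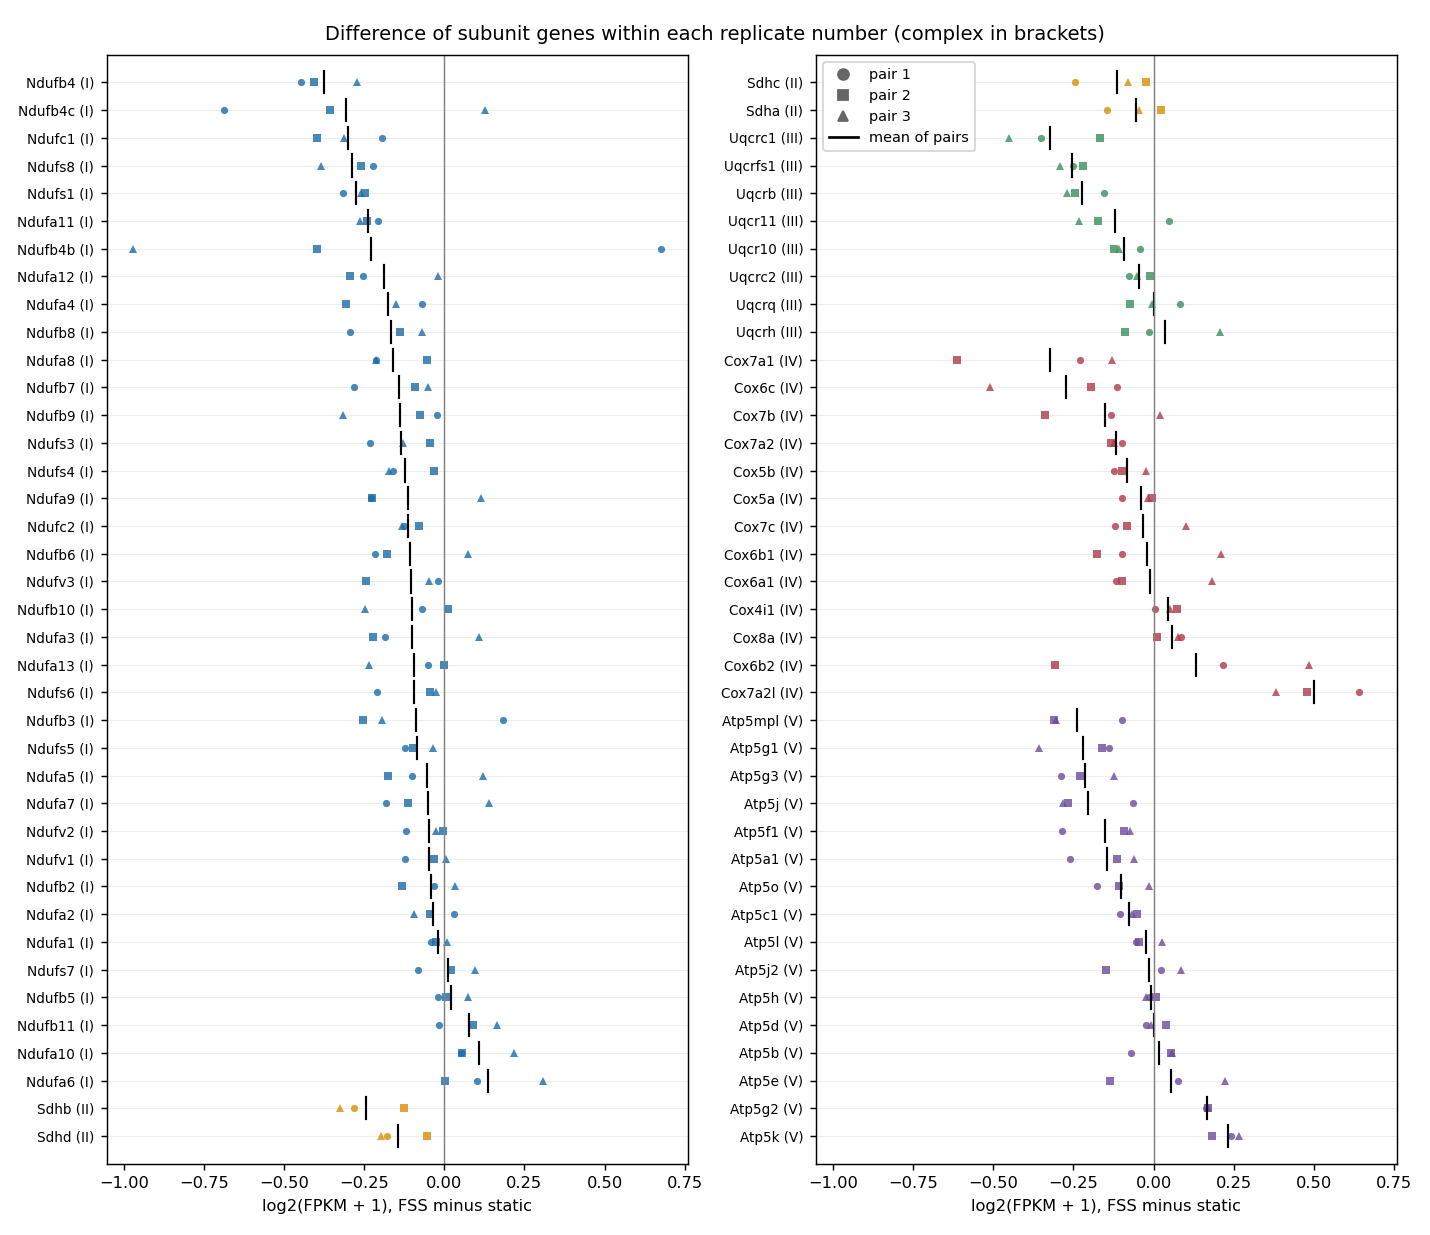
Difference in log2(FPKM + 1), FSS minus static, of tested subunit genes within replicate numbers 1 (circles), 2 (squares) and 3 (triangles) as deposited; black bars are the mean of the pairs, colours are complexes and genes run by mean difference within a complex. Cox7a2l stands apart on the right with pair differences between 0.38 and 0.64, Ndufb4b spreads from -0.97 to 0.68, and 39 genes lie left of 0 in all 3 pairs (7 with median-ratio scaling).

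Replicate number moved the members further than shear did. With both groups in the fit, 56 of the 79 members were higher in libraries numbered 3 than in those numbered 1 and 2 and 0 were lower, beside 13.7% of all genes tested higher and 29.3% lower. The median log2 difference was 0.521 for members and -0.124 for all genes tested. The higher members numbered 27 of 38 in complex I, 3 of 4 in complex II, 6 of 8 in complex III, 8 of 13 in complex IV and 12 of 16 in complex V. Ndufv1 differed most, at 0.84 ± 0.14 (SE, adjusted p 0.00358), followed by Cox6a1 at 0.80, Ndufb11 at 0.79 and Uqcrq, a small complex III subunit, at 0.77. Some members lay below 0 instead, none past the threshold. Ndufb4b, which averaged 1.03 FPKM, was lowest at -0.69 (adjusted p 0.0731). Others were Cox6c at -0.29, Atp5mpl at -0.23, Cox7b at -0.20, Ndufs4 at -0.18 and Uqcrb at -0.17. Cox7a2l lay between, at 0.25 with an adjusted p of 0.0998. Libraries numbered 3 were set against the others because they stood apart in these data. These calls and p-values therefore describe that gap and are no independent support for it. What a replicate number shares is not given in the labels.

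Base composition of transcripts moved with the number but less with shear. Over 77 members with a transcript, the rank correlation (Spearman) of the number 3 difference with GC content was 0.45, and over 10683 genes it was 0.51; genes of a library share its depth and processing, so these describe the libraries. For the FSS difference the same correlations were 0.14 and -0.03. Of 31 members under 50% GC, 15 were higher in libraries numbered 3, with a median of 0.353, and of 46 members at or over 50%, 41 were higher, with a median of 0.601. Members' transcripts were short, with a median of 865 bases beside 3078 for all genes. The rank correlation of the number 3 difference with length was 0.20 over members and -0.44 over all genes, so the signs differ. Summed neutrophil markers were 257, 399 and 433 FPKM in FSS libraries and 290, 480 and 521 FPKM in static libraries. In libraries numbered 3, 2 of 7 tested markers were higher and 0 lower, beside 13.7% and 29.3% of all genes tested. Between FSS and static, the blocked fit called 1 lower (S100a8, adjusted p 0.00148) and 0 higher, beside 25.1% and 7.73%. With block and median-ratio scaling 1 was lower (S100a8, 0.00351) and 2 higher, beside 16.8% and 19.2%. The part of base composition, of length and of these cells in the result was not tested.

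**Figure D5:**
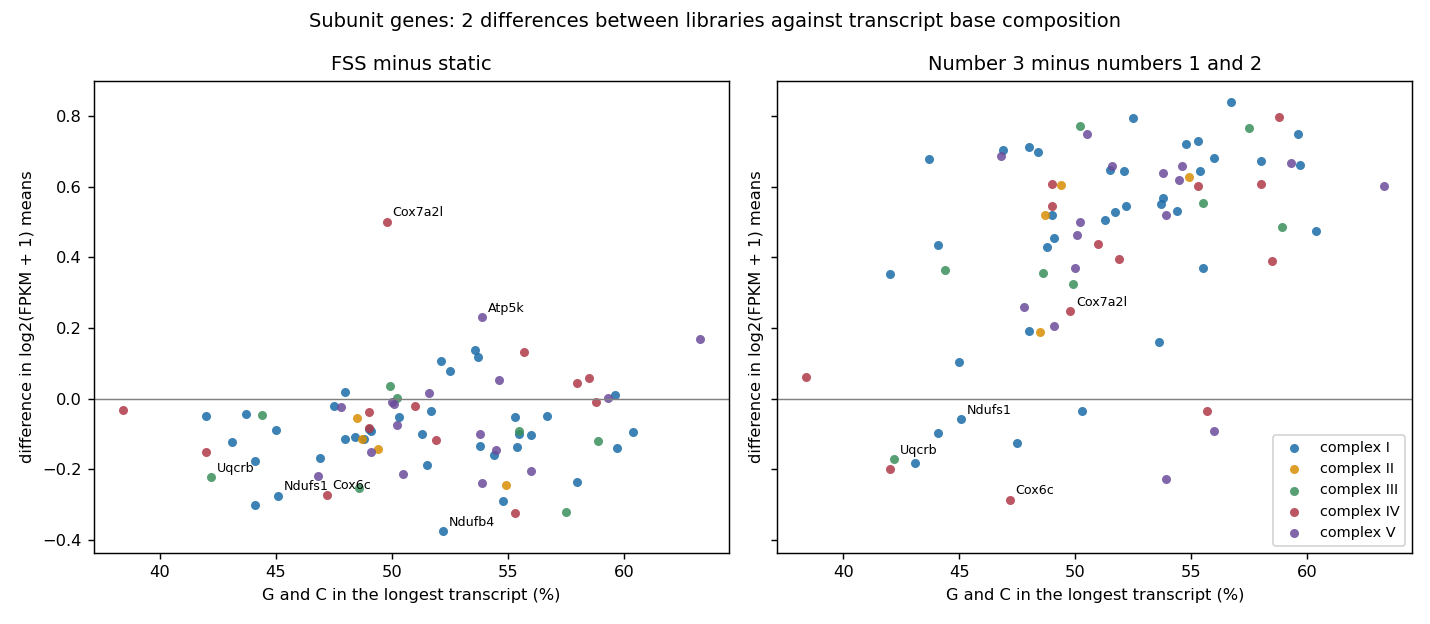
Difference in log2(FPKM + 1) of 77 subunit genes against the percentage of G and C in the longest transcript: FSS minus static (left) and libraries numbered 3 minus those numbered 1 and 2 (right), coloured by complex. At right most genes lie above 0, up to 0.84 (Ndufv1), and Cox6c is lowest at -0.29; at left genes lie around 0, between -0.38 (Ndufb4) and 0.50 (Cox7a2l).

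Without both libraries numbered 3, the unblocked fit again called 0 members higher and 0 lower, beside 3.69% and 3.42% of all genes tested (7.11% in all). With the block, 1 was higher (Cox7a2l) and 9 were lower, beside 14.6% and 24.6% of all genes tested. Of the 5 members lower in the blocked fit of all libraries, 4 were also lower here (Ndufb4, Ndufc1, Uqcrc1 and Uqcrfs1), and Ndufs8 was not. The others lower here were Ndufa12, Ndufb4c, Ndufs1, Cox7a1 and Atp5g3. The median log2 difference without these libraries was -0.119 in complex I, -0.125 in complex II, -0.073 in complex III, -0.108 in complex IV and -0.071 in complex V, beside -0.075 for all genes tested. In the fit of 6 libraries the medians of complexes I, III, IV and V lay above that of all genes tested. Without libraries numbered 3 those of complexes I and IV lay below it. The median of complex II lay below it in both.

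Other mitochondrial gene lists were read from the same fit to place the subunits. Of 43 tested genes of a list of assembly factors, which build the complexes, and the complex I gene Ndufab1, 0 were higher and 1 was lower without the block. This was Cox11, which inserts copper into complex IV, with 1.07, 1.35 and 0.87 FPKM in FSS libraries and 2.73, 2.65 and 2.98 FPKM in static libraries, a log2 difference of -0.86 and an adjusted p of 0.0430. Its FSS libraries lay below all static libraries, as for 20.4% of all genes tested. Cox18, which helps to insert a mitochondrially made subunit of complex IV, had 3.15, 3.42 and 3.53 FPKM in FSS libraries and 5.85, 5.90 and 6.08 FPKM in static libraries, with an adjusted p of 0.0621, or 0.00274 with the block. With the block 12 genes of the list were lower and 0 higher, beside 25.1% and 7.73% of all genes tested, and with block and median-ratio scaling 6 were lower and 5 higher, beside 16.8% and 19.2%. The shares that were lower are close to those of all genes, as they are for the TCA cycle and biogenesis lists with the block. The median of the list was -0.222 as deposited and -0.064 after scaling.

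Enzymes that feed the chain showed 0 calls without the block. Of 14 TCA cycle genes, 4 were lower with the block, beside 25.1% of all genes tested, and 0 with block and scaling, where 1 was higher. Ogdh, of the oxoglutarate dehydrogenase complex, had 39.6, 51.6 and 56.5 FPKM in FSS libraries and 54.1, 63.4 and 75.3 FPKM in static libraries, with an adjusted p of 0.387, or 0.0146 with the block. Idh3a, of isocitrate dehydrogenase, had 0.447 and 0.0391. Of 10 pyruvate dehydrogenase and pyruvate carrier genes, 1 was lower with the block, the phosphatase Pdp1 (adjusted p 0.350 without and 0.0375 with the block), and Pdhx had 0.476 and 0.117. Of 12 electron carriers and membrane carriers, 1 was lower with the block. This was Cycs, cytochrome c, with 17.2, 18.5 and 18.3 FPKM in FSS libraries and 21.8, 26.4 and 22.0 FPKM in static libraries (adjusted p 0.283, or 0.0262 with the block). Etfdh, which passes electrons from fatty acid oxidation to ubiquinone, had 0.449 and 0.0669. The lower calls of the pyruvate and carrier lists also stand beside 25.1% of all genes tested. After block and median-ratio scaling Cycs (0.144) and Pdp1 (0.108) were not called. Etfdh (0.00693) and Pdk1 of the pyruvate list (0.0241) were then higher, beside 19.2% of all genes tested.

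Of 13 regulators of mitochondrial biogenesis, 0 were called without the block and 4 were lower with it, beside 25.1% of all genes tested. With block and scaling 4 were lower and 2 higher, beside 16.8% and 19.2%. Pprc1, a coactivator of NRF1, had 10.6, 13.5 and 8.90 FPKM in FSS libraries and 19.1, 21.2 and 21.1 FPKM in static libraries, with an adjusted p of 0.0667, or 0.00300 with the block. Tfrc, the transferrin receptor that brings in iron, had 9.61, 13.6 and 8.87 FPKM in FSS libraries and 18.4, 27.8 and 23.2 FPKM in static libraries, with 0.0640 and 0.00121. Both had their FSS libraries below all static libraries, as 20.4% of all genes tested did. Among 6 mitochondrial antioxidant genes 0 were called without or with the block, beside 1.72% and 32.9% of all genes tested. Prdx3 and Txnrd2, a peroxiredoxin and a thioredoxin reductase, had blocked adjusted p values of 0.0923 and 0.321. With block and median-ratio scaling 1 was higher (Sod2, adjusted p 0.0125) and 0 lower, beside 19.2% and 16.8% of all genes tested.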

How the data were processed

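Per the labels' protocols, RNA of 6 libraries (3 FSS, 3 static) was sequenced as DNA nanoballs. HISAT and Bowtie2 appear in the submitters' processing notes, with neither version nor role. Quantifier, genome build, annotation and strandedness: not given in the sources used here. The authors deposited 1 table of 22899 genes, of which 4828 were blank in every library, and files per sample with the same values. The deposited values have no unit in the header and were taken as FPKM, because values multiplied by transcript length summed to near the total that FPKM would give (0.740 to 0.832 of it with median lengths and 1.04 to 1.18 with the longest), while totals differed between libraries (413898 to 470596). No steps of whole reads were found, so depth is unknown, no counting interval is given and only the number of libraries limits the precision stated.

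The 10899 genes that reached 1 FPKM in 3 or more libraries were fitted with limma 3.58.1 (R 4.3.3, trend, two-sided) on log2(FPKM + 1), FSS minus static, with Benjamini-Hochberg adjustment over all of them and a threshold of 0.05; every adjusted p is from this tool. The log2(FPKM + 1) scale understates changes of low genes. Ratios are of FPKM. Replicate numbers come from the titles, which do not say what they share. Deviations from group means correlated across genes at 0.79, 0.66 and 0.87 within numbers 1, 2 and 3, all over 0.1. FSS library 1 with static library 2 (0.279) and FSS library 2 with static library 1 (0.216) were over 0.1 too. Number 3 with another number gave -0.781 to -0.537. Each library correlated most with the library of its own number, so the numbers were taken to pair the libraries. The block is given where it changes a call. Median-ratio factors ran from 0.845 (FSS library 3) to 1.11 (static library 2). GC and length are of the longest GENCODE vM21 transcript.

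Members and lists were chosen with earlier results of these data known. Named per complex were up to 4 members by adjusted p (the blocked one where fewer passed), the largest rise and fall, core subunits, isoform genes and, for other lists, the 2 members with the smallest adjusted p; Uqcrb, Atp5mpl, Cox6c, Ndufb4c and others outside this rule were named after their values were seen, and 1 member is counted but not reported here by itself. Of the 84 members, 28 overlap another gene in RefSeq on GRCm38.p6. Alternatives were a pseudocount of 0.1, no filter, median-ratio scaling, equal totals, the block, a threshold of 0.01, each library left out and, chosen after seeing the data, both libraries numbered 3 left out. The fit was tested on simulated data.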

Additional observations from a re-analysis of the deposited data

How the results depend on the processing

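Over all genes tested (93 higher, 94 lower), counts were 0 and 0 without a filter, 842 and 2739 with the replicate block, 2092 and 1829 with block and median-ratio scaling, 402 and 373 without both libraries numbered 3 (1594 and 2676 with the block) and 4 and 1 at a threshold of 0.01; scaling alone gave 158 higher and equal totals 45 lower. Leaving out 1 library gave 3 to 291 higher and 0 to 176 lower, both the most without FSS library 3. Members counted 0 higher and 0 lower except with the block (1 and 5), with block and scaling (4 and 0) and with the block without both libraries numbered 3 (1 and 9). With median-ratio scaling, blocked or not, the members' median moved to 0.065 over all, 0.056 in complex I, 0.030 in II, 0.055 in III, 0.128 in IV and 0.111 in V. With equal totals it was -0.030 over all, -0.037 in I, -0.040 in III and 0.016 in V. Leaving out 1 library gave -0.244 to 0.068 over all, -0.267 to 0.055 in I, -0.315 to 0.055 in II, -0.260 to 0.075 in III, -0.204 to 0.110 in IV and -0.211 to 0.090 in V; all 6 medians were positive without FSS library 1 or static library 3 and negative without FSS library 3 or static library 1. Pair counts moved to 22 higher and 7 lower with median-ratio scaling. The block called genes lower in the TCA (4), pyruvate (1), assembly (12), carrier (1) and biogenesis (4) lists. With block and scaling it called 1 TCA, 1 pyruvate, 5 assembly, 1 carrier, 2 biogenesis and 1 antioxidant gene higher and 6 assembly and 4 biogenesis genes lower. Without both libraries numbered 3, 2 assembly genes were lower, and with the block 4 TCA, 1 pyruvate, 11 assembly, 1 carrier and 4 biogenesis genes were lower and 1 assembly, 1 biogenesis and 1 antioxidant gene higher. The 39 named subunits that were tested kept their side of the threshold or gained a call, but 24 turned direction under at least 1 alternative, 14 of them with median-ratio scaling. The causes were not tested. With 3 libraries a group and unknown depth, small differences could not be resolved.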
